A study of Mus musculus with 3 samples.

Results

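Among protein-coding genes of mouse granulosa cells, 127 of 20504 had more RNA at 4 h after an ovulatory hormone injection than before it and still had more at 12 h. Granulosa cells line the ovarian follicle and nourish the egg inside it. Members were selected on their measured levels. A gene belongs to the set when log2 of its FPKM + 1 was at least 1 higher at 4 h than at 0 h, at least 1 higher at 12 h than at 0 h, and not lower by 1 or more at 12 h than at 4 h. FPKM counts the fragments on each kilobase of a transcript relative to library depth and is summed here over the coding isoforms of each gene. The thresholds gave 133 genes, and 6 on a list of 10 genes that the rule leaves out (among them Adamts1, Edn2 and Id2) were removed. Because the members were chosen by these 4 h and 12 h levels, the levels are given as a description.

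All cells came from wild-type C57BL/6 female mice, 21 to 28 days after birth. A dose of 4 IU of equine chorionic gonadotropin (eCG) had made their follicles grow, and 5 IU of human chorionic gonadotropin (hCG), a hormone that stands in for luteinizing hormone, then set off ovulation. Ovaries were taken before hCG (0 h), 4 h after it and 12 h after it, and cells were released by puncturing follicles. RNA of 3 mice was used at each time and is represented by 1 library, so no value has a replicate, no test was possible, and each difference is one between 2 libraries.

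The luteinizing hormone surge raises cAMP in granulosa cells and sets off a wave of early transcripts, most of which are known to be brief. Over the following hours the cells leave the cell cycle, lose follicular gene expression and take on the steroid output, matrix and shape of luteal cells. The products of genes that stay up after the early wave range from steroid and lipid enzymes and basement membrane to surface proteins, secreted ligands and growth arrest factors.

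The low FPKM values were spaced in steps that place the depth at 13300000, 11900000 and 11600000 fragments at 0, 4 and 12 h. Granulosa markers were present in each library (Foxl2 at 149, 44.3 and 102 FPKM, Inha at 6986, 7163 and 3742), and none of the 7 markers was a member. Of these 7, 4 were lower at 4 h and 2 at 12 h, with median log2 folds of -1.73 and -0.90. Markers of other cells were present too. The 8 measured surface epithelium markers summed to 65.2, 156 and 99.4 FPKM, 8 leukocyte markers to 74.1, 107 and 107, 6 endothelial markers to 13.5, 33.4 and 13.6, and 5 neutrophil markers to 1.78, 24.0 and 3.55. The sums were 225, 1828 and 285 FPKM for 7 theca and stroma markers. Star, also described below among the steroidogenic genes, held 1583 of this at 4 h, so the sum is not a measure of theca cells. Sums were 114, 173 and 169 FPKM for 5 smooth muscle markers and 163, 133 and 230 for 6 oocyte markers. They were 1739, 1091 and 1110 FPKM for 5 erythroid markers and under 2 FPKM for 4 T and B cell markers. In a bulk library fewer cells of a type and less RNA per cell cannot be told apart.

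At 4 h 1221 coding genes (5.95%) passed the first threshold, and at 12 h 349 (1.7%) passed the second. Both were passed by 218 genes, which are 17.9% of those higher at 4 h and 62.5% of those higher at 12 h. Of these, 85 had dropped by 2-fold or more between the later times. The 127 that remained once the left-out genes were removed are 0.619% of all coding genes and 1% of the 12700 with at least 1 FPKM in 1 library. Both folds share the 0 h library, so they are set side by side and not related to each other.

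The members' median log2 fold was 1.60 at 4 h, with a range of 1.001 to 5.72, and 1.43 at 12 h, with a range of 1.0 to 6.98. The median over all coding genes with at least 1 FPKM was -0.01 at both times. Together the members held 0.246% of all coding FPKM at 0 h, 0.892% at 4 h and 0.936% at 12 h. Their levels differed widely: 96 had at least 5 FPKM at 12 h, 31 had less, and 10 had at least 100. At 0 h 37 members were under 1 FPKM and 12 of those were listed at 0, for which no fold is given. An interval can be placed around each gene's FPKM from the deposited upper bounds, which describe the estimate within 1 library and not the spread between animals. By these intervals 0 h lay below both later times in 100 of 127 members, where 5.59% of the 12700 coding genes meet the same condition. The rule chose members by these same levels, so these shares cannot be read against each other.

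**Figure D1:**
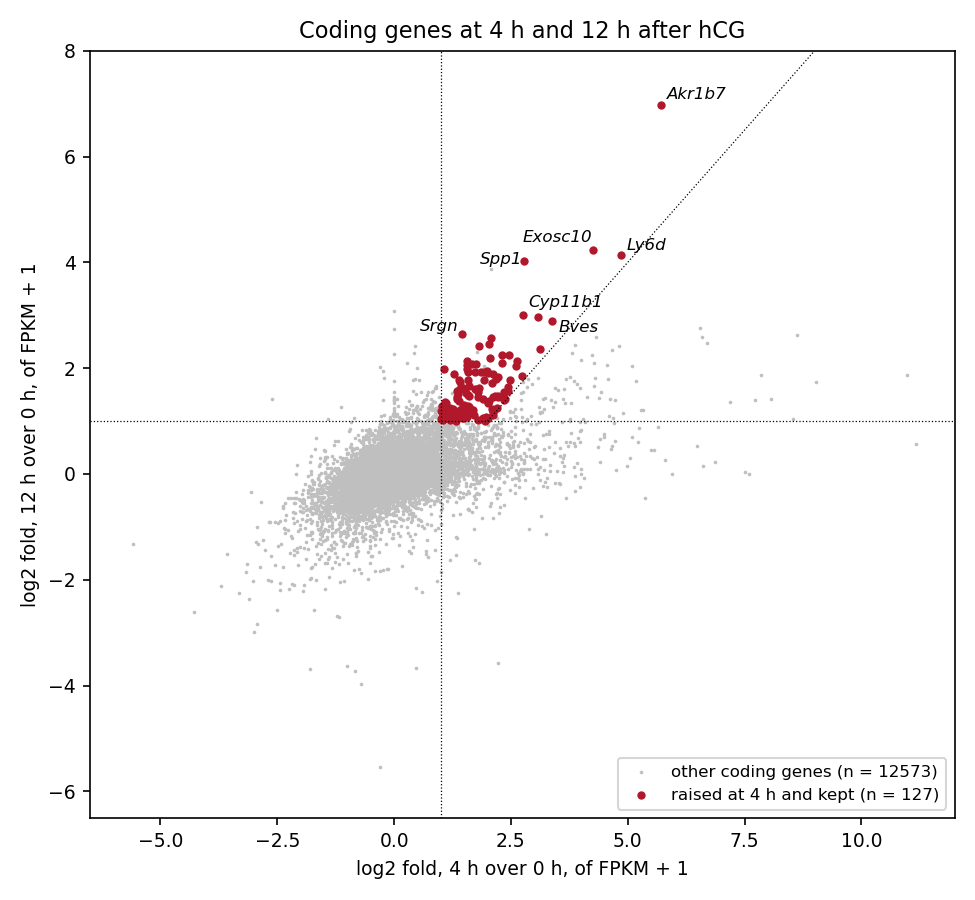
Log2 fold of FPKM + 1 at 4 h over 0 h (horizontal axis) and at 12 h over 0 h (vertical axis) for 12700 coding genes with at least 1 FPKM in 1 library. Each point is 1 gene, the 127 members are red, and dotted lines mark the 3 thresholds. Akr1b7 lies farthest out on both axes among the members, at 5.72 and 6.98, and the grey points inside the bounds are the 6 left-out genes.

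The word "kept" covers a range of courses. From 4 h to 12 h 46 members were higher and 81 lower, where 50.6% of the 12700 coding genes were higher. The rule used both levels and removed genes that dropped by 2-fold or more. The balance of members, or of role groups below, is therefore set beside that of all genes only as a description. The median log2 difference between these times was -0.17 in the deposited values, with 57 members within 0.25 of no difference. Intervals at 4 h and 12 h overlapped in 93 members. They were apart in 34, with 7 higher at 12 h and 27 higher at 4 h. Over the 12700 coding genes they were apart in 35.2%, a share that cannot be read against that of the members, since the rule removed genes that dropped by 2-fold or more. The balance between the later times depends on how libraries are scaled. When libraries were brought to equal FPKM sums the members' median became 0.17, with 84 higher and 43 lower, and that of all coding genes moved to 0.35. Statements below on the direction from 4 h to 12 h are relative to the deposited scale unless the other scalings are named.

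The thresholds fell among genes with nearly equal values. Just inside the first threshold were Wt1, Lrp8 and Ostf1, with log2 folds at 4 h of 1.001, 1.01 and 1.05, and just outside were Taf1d, Elf3 and Efhd1 at 0.98, 0.95 and 0.91. At 12 h C1qa, Arrdc3 and Slc6a6 lay inside at 1.0, 1.01 and 1.03, and Mical1, Lbh and Angptl4 outside at 0.98, 0.98 and 0.98. On the third condition Krt18, Mgp and Wnt4 were kept with log2 differences of -0.98, -0.96 and -0.95 from 4 h to 12 h, and Rrad, Msi1 and Peg10 were not, at -1.02, -1.02 and -1.07.

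Akr1b7, an aldo-keto reductase that reduces the aldehyde released when cholesterol loses its side chain, had the largest fold of all members. Its level was 0.22 FPKM at 0 h (interval 0 to 0.724), 63.2 at 4 h (55.4 to 71.0) and 153 at 12 h (143 to 163). These levels rest on about 3.1, 813 and 1913 fragments, and the log2 folds of FPKM + 1 were 5.72 and 6.98. With so low a level before hCG these sizes depend on the added 1 FPKM, and they were 7.64 and 8.91 with 0.1 FPKM added and 3.71 and 4.92 with 5 FPKM. The 3 intervals did not overlap, and the 12 h level was 2.41-fold that at 4 h. Akr1b7 lies at chr6:34412362-34423137 in GRCm38. Of the related genes, Akr1b8 was at 20.9, 120 and 30.6 FPKM, near its starting level again by 12 h, Akr1b10 was at 7.57, 10.2 and 11.6 FPKM, and Akr1b3 was near 0 in all 3 libraries.

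Spp1 encodes osteopontin, a secreted phosphoprotein that binds integrins and CD44, and was the most abundant member at 12 h. Its levels were 21.0 FPKM (16.4 to 25.7), 152 (141 to 163) and 358 (343 to 374) at 0, 4 and 12 h. The intervals were apart at each step, with log2 folds over 0 h of 2.79 and 4.03. Spp1 lies at chr5:104435111-104441053.

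Promoter windows of 250 bases before to 50 after an annotated start came from RefSeq (GRCm38.p6) for 98 of the 127 members. As this is 77.2% of them, under the 80% required, the members' shares were not compared with other genes. Windows were searched on both strands for 12 motifs, among them the cAMP response element TGACGTCA, the AP-1 site TGANTCA, the NR5A1 site TCAAGGTCA, the NR4A monomer site AAAGGTCA, the RUNX core TGTGGT and CCAAT. Among 16390 coding genes with a window these letters occurred in 2.67%, 8.31%, 0.372%, 1.53%, 16.5% and 42.5% in that order. The other motifs searched were the C/EBP palindrome, GATA, the antioxidant and hypoxia element cores, STAT and TATAAA. A match is a description of letters and not of a bound site. The bases upstream of the start are printed 5′ to 3′ on the gene's own strand. Capitals mark only the matches named as such beside each sequence, other matches stay in lower case and are named, and positions are counted back from the base before the start as -1.

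The sequences upstream of Akr1b7 (chr6:34412112-34412361, plus strand) and Spp1 (chr5:104434961-104435110, plus strand) are shown because these genes were the highest at 12 h within their groups. In Akr1b7 the capitals are an NR4A monomer site on the opposite strand at -248, CCAAT at -199 and -64, and a RUNX core at -60 that shares a base with the second CCAAT. In Spp1 they are a RUNX core on the opposite strand at -128 and a CCAAT on the opposite strand at -46.
Akr1b7: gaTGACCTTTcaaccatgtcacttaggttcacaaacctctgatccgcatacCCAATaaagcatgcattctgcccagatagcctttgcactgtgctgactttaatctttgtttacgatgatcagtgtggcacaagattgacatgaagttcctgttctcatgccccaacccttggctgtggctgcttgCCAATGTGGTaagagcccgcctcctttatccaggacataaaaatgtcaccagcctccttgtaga
Spp1: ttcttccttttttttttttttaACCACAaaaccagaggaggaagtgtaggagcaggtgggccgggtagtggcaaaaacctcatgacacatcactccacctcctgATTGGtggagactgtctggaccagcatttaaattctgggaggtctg

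The steroid, sterol and lipid genes made up 13 members, sorted by known function after their values were seen. They had the highest median share of the 4 h gain still present at 12 h, 121% against 83.7% over all members, where the gain is the FPKM above 0 h. Of the 13, 10 were at a higher level at 12 h than at 4 h and 3 at a lower one, and these counts were the same on all 4 scales tried. Of the 12700 coding genes, 6431 were higher at 12 h on the deposited scale, 6710 with median-of-ratios scaling, 8632 with equal coding sums and 9389 with equal library sums, so on the last of these scales the count for the group lay near that for all genes. Their summed level was 79.0, 330 and 435 FPKM at 0, 4 and 12 h.

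Alas1, the rate-limiting enzyme of heme synthesis and so of the cofactor of steroidogenic P450 enzymes, was at 25.2 FPKM (21.5 to 28.9), 75.7 (70.9 to 80.5) and 114 (108 to 121). Each interval was clear of the others, with log2 folds of 1.55 and 2.14 over 0 h. Akr1c18 encodes 20α-hydroxysteroid dehydrogenase, which inactivates progesterone. It was at 5.41, 16.2 and 19.2 FPKM, and the 4 h interval (12.3 to 20.2) overlapped that at 12 h (14.5 to 23.8). Cyp11b1, the steroid 11β-hydroxylase known from the adrenal cortex, was listed at 0 at 0 h and was at 5.81 FPKM (4.34 to 7.27) at 4 h and 7.05 (5.40 to 8.69) at 12 h. It was the single member at 0 before hCG that had at least 5 FPKM at 12 h, and its later levels rest on about 205 and 243 fragments. Cyp11b2, its neighbouring paralog, was listed at 0 in all 3 libraries.

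Lipid transport genes took several courses. Abca1, the cholesterol efflux pump, was at 14.2, 70.1 and 40.5 FPKM, and the later intervals (67.9 to 72.3 and 38.9 to 42.2) were apart. Lipg, endothelial lipase, was at 11.5, 25.4 and 28.8 FPKM, and Lrp8, a receptor for apolipoprotein E and reelin, at 10.7, 22.6 and 23. Both were near their 4 h level at 12 h, with log2 differences of 0.18 and 0.03. Abcb1b, a P-glycoprotein efflux pump, and Stard5, a cytosolic sterol carrier, were at 15.7 and 11.4 FPKM at 12 h, with log2 folds over 0 h of 1.62 and 1.42. Nr1h4, the bile acid receptor FXR, was at 0.81, 10.2 and 6.90 FPKM. Cbr2, a carbonyl reductase, was at 1.11, 4.48 and 5.35 FPKM. Fabp7, a fatty acid carrier, was at 0.54, 2.24 and 5.08 FPKM on as few as 4.3 fragments at 0 h. Pitpnm1, a phosphatidylinositol transfer protein, was at 1.36, 9.35 and 4.46 FPKM.

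Most of the classical steroidogenic pathway lay outside the set. Of 34 listed genes for steroid synthesis and cholesterol handling, 31 had at least 1 FPKM in 1 library. Among the 31, 3 were members (Abca1, Akr1c18 and Lrp8), 11 were higher at 4 h and 7 at 12 h. Of the 12700 coding genes 1% were members, and 9.61% and 2.75% were higher. Star, which brings cholesterol into the mitochondrion, met the first thresholds at 14.3, 1583 and 83.8 FPKM but dropped too far between 4 h and 12 h. Cyp11a1, which cleaves the cholesterol side chain, was at 557, 1713 and 930 FPKM, below the threshold at 12 h. The median log2 fold of the 31 listed genes with at least 1 FPKM was 0.37 at 4 h and 0.06 at 12 h.

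**Figure D2:**
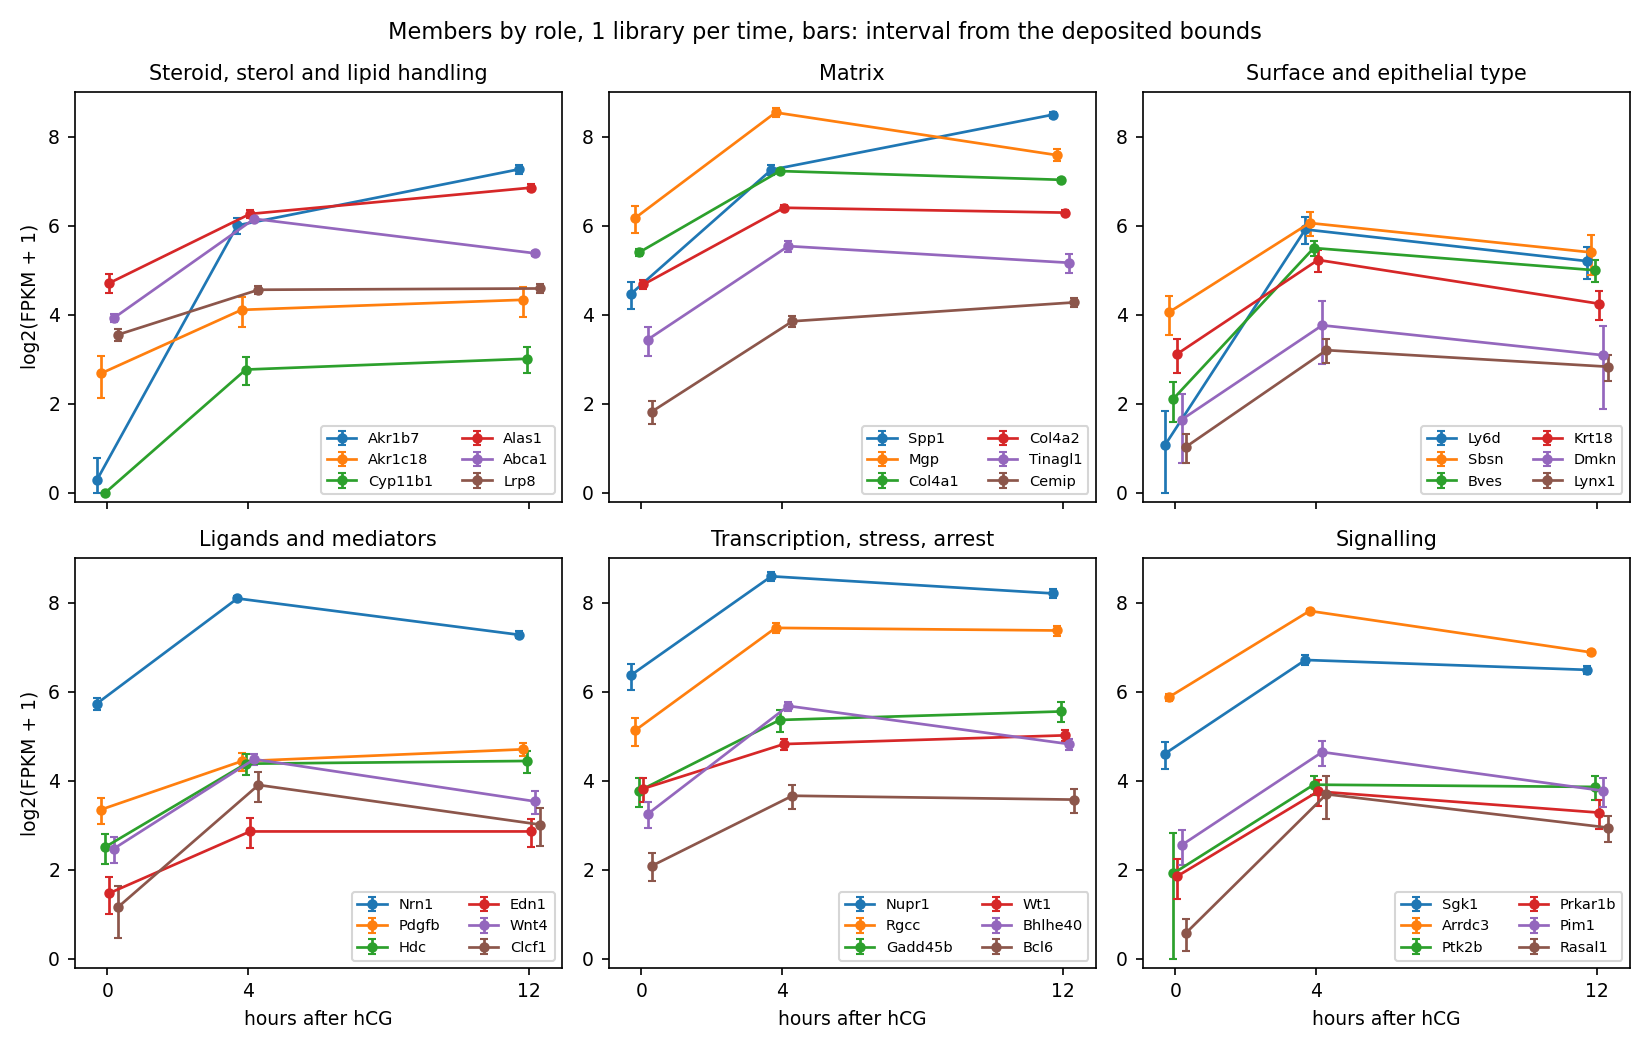
Levels, as log2 of FPKM + 1, of 36 members in 6 role groups against hours after hCG, with 1 library per time and points offset slightly sideways. Bars are intervals made from the deposited upper bounds and do not show spread between animals. Akr1b7 and Spp1 climb further from 4 h to 12 h, and Ly6d, Mgp and Wnt4 come down.

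Matrix and secreted matrix proteins made up 13 members, and all 13 had a 0 h interval below both later ones. That condition was met by 100 of all 127 members and by 5.59% of the 12700 coding genes. Members were chosen on these levels, so the count is a description. The summed level of the 13 was 217, 951 and 925 FPKM. Besides Spp1 the most abundant was Mgp, matrix Gla protein, an inhibitor of calcification, at 70.9, 371 and 191 FPKM. Its 4 h interval (346 to 397) was above that at 12 h (173 to 209), and 39.9% of the gain was left. The basement membrane collagens Col4a1 and Col4a2, whose chains assemble into 1 trimer, ran in parallel. Col4a1 was at 41.2, 149 and 130 FPKM, and Col4a2 at 24.6, 83.5 and 77.3, with log2 folds at 12 h of 1.63 and 1.61. The other type IV chains were not members: Col4a5 was at 23.7, 24.0 and 26.1 FPKM, Col4a6 at 5.51, 6.57 and 9.80, and Col4a3 and Col4a4 under 2 FPKM throughout. Tinagl1, another basement membrane protein, was at 9.84, 45.5 and 34.9 FPKM. Col18a1, the source of endostatin, was at 7.97, 34.0 and 17.8 FPKM, with later intervals apart.

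Hyaluronan and crosslinking genes were also in the set. Cemip, which takes part in hyaluronan breakdown, was at 2.54 FPKM (1.91 to 3.16), 13.4 (12.3 to 14.6) and 18.3 (17.0 to 19.7), and its 12 h interval was above that at 4 h. Itih2, whose protein joins hyaluronan as a heavy chain, was at 12.7, 28.6 and 27.5 FPKM. The collagen crosslinkers Lox and Loxl2 were at 6.62, 22.1 and 17.3 and at 8.25, 18.9 and 18.2 FPKM. In contrast Loxl1 was lower at 12 h than at 0 h, at 17.0, 8.05 and 7.10 FPKM. Prg4 (lubricin) was at 5.46, 15.3 and 18.1 FPKM, Pamr1 at 2.85, 8.83 and 9.63, and Coch (cochlin) at 2.67, 10.1 and 7.65, and the later intervals of all 3 overlapped. In a list of 35 matrix genes 31 had at least 1 FPKM in 1 library. Of the 31, 4 were members, 11 were higher at 4 h and 6 at 12 h. The shares of the 12700 coding genes were 1%, 9.61% and 2.75%. Vcan, the proteoglycan of the expanding cumulus matrix, was at 111, 1806 and 119 FPKM and so was back near its starting level.

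Surface and epithelial-type proteins formed a group of 15 whose levels were mostly lower at 12 h than at 4 h. The median log2 fold was 2.11 at 4 h and 1.45 at 12 h, and 14 of 15 were lower at the later time. With libraries at equal sums, 10 were lower and 5 higher, against a median of 0.35 for all coding genes. The summed level was 51.7, 324 and 229 FPKM, moving the same way between times as the surface epithelium markers (65.2, 156 and 99.4 FPKM, 4 of 8 higher at 4 h, 1 at 12 h, none at 0). Their part in the group's levels was not tested.

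Ly6d, a small surface protein anchored by glycosylphosphatidylinositol, was at 1.09 FPKM (0 to 2.55), 59.3 (46.7 to 71.8) and 35.8 (27.0 to 44.6). The intervals were apart at each step, with log2 folds of 4.85 and 4.14, on about 7.9 fragments at 0 h. Of 18 Ly6-family and anchored genes 17 had at least 1 FPKM in 1 library. Among the 17, 1 was a member, Ly6d, and 9 were higher at 4 h and 2 at 12 h. The shares of coding genes with at least 1 FPKM were 1%, 9.61% and 2.75%. Ly6a, for instance, was at 1.29, 9.67 and 2.86 FPKM. Lynx1, which lies next to Ly6d, was at 1.04, 8.20 and 6.12 FPKM.

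Bves, a cAMP-binding membrane protein of the Popeye family, was at 3.31 FPKM (1.99 to 4.62), 44.1 (38.6 to 49.6) and 30.9 (25.5 to 36.4). Its log2 folds of 3.39 and 2.89 were among the largest of the members with at least 5 FPKM at 12 h. Heg1, a membrane protein of endothelial junctions, was the exception to the drop, at 7.17, 25.1 and 33.7 FPKM with later intervals apart. Krt18, a simple-epithelium keratin and one of the surface epithelium markers, was at 7.70, 36.5 and 18 FPKM. Shroom3, which drives apical constriction, was at 8.64, 27.8 and 22.5 FPKM, although its 0 h interval reached from 0 to 17.5. Asgr1, the asialoglycoprotein receptor subunit of liver, was at 0.64, 12.7 and 11.8 FPKM.

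The remaining surface genes were lower in level. Alpl (alkaline phosphatase), Aqp5 (a water channel) and Esrp2 (an epithelial splicing factor) were at 5.22, 5.17 and 3.66 FPKM at 12 h, with log2 folds over 0 h of 1.38, 1.47 and 1.22. Aqp1, another water channel, was at 9.01, 4.97 and 4.37 FPKM. Eps8l1, Smim22 and Fxyd3 were under 4 FPKM at 12 h, and the latter pair were listed at 0 before hCG with 12 h intervals that reached 0.

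Several members sat side by side on their chromosomes. Lynx1 and Ly6d are adjacent coding genes on chromosome 15, with 9077 bases from the end of one to the start of the other. Cyp11b1 lies 71325 bases beyond Ly6d, with 4 coding genes between (Ly6g6g, Ly6k, Gml and Gml2). Of these, Gml and Gml2 were listed at 0 in all libraries, and Ly6k was at 0, 1.47 and 0.90 FPKM. The other adjacent pairs were Sbsn and Dmkn on chromosome 7, C1qc and C1qa on chromosome 4, Slc12a8 and Heg1 on chromosome 16, and Col4a1 and Col4a2 on chromosome 8, which run in opposite directions from overlapping starts.

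Sbsn (suprabasin) and Dmkn (dermokine) are secreted proteins known from stratified epidermis. Sbsn was at 15.6 FPKM (10.7 to 20.5), 65.6 (53.8 to 77.5) and 41.2 (28.5 to 53.9). Dmkn was at 2.12 FPKM (0.60 to 3.64), 12.6 (6.45 to 18.7) and 7.51 (2.71 to 12.3). In each the gain left at 12 h was close to 51%, at 51.2% and 51.6%, and the intervals of 4 h and 12 h overlapped, barely so in Sbsn. Their upstream windows (chr7:30751321-30751470 and chr7:30763606-30763755, both plus strand) are shown as those of a neighbouring pair with like courses. Capitals mark an AP-1 match at -119 in Sbsn and at -89 in Dmkn. Sbsn has another AP-1 match at -6 that runs across the start, so that its last base is not printed and it stays in lower case.
Sbsn: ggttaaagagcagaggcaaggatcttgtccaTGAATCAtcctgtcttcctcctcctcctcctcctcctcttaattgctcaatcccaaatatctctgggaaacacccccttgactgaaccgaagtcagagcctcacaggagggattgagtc
Dmkn: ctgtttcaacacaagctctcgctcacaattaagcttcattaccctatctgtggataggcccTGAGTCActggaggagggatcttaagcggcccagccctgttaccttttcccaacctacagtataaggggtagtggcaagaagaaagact

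Growth arrest and stress genes led the group of 14 transcription factors and stress genes. Nupr1, a stress-induced chromatin protein, was the most abundant member at 4 h, at 81.7 FPKM (65.1 to 98.3), 385 (360 to 410) and 295 (273 to 317) over the 3 times. Rgcc, a regulator of the cell cycle, was at 34.0, 172 and 165 FPKM, and its later intervals (159 to 185 and 153 to 178) overlapped. Gadd45a and Gadd45b, which slow the cell cycle after stress, differed in course. Gadd45a was at 26.0, 87.4 and 57.4 FPKM and Gadd45b at 12.7, 40.3 and 46.1. The third family gene, Gadd45g, was at 21.4, 42.8 and 22.9 FPKM and so not a member. Hspb1, a small heat shock protein, was at 2.04, 9.24 and 11.8 FPKM, and Osgin1, a growth inhibitor induced by oxidative stress, at 1.71, 6.10 and 8.30.

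Among transcription factors Wt1, a zinc finger protein of the gonadal somatic lineage, was at 13.2, 27.4 and 31.5 FPKM. Bhlhe40, a repressor tied to the clock and to hypoxia, was at 8.54, 50.3 and 27.3 FPKM, with later intervals apart. Bcl6, a transcriptional repressor, was at 3.26, 11.7 and 10.9 FPKM, and Atoh8 at 3.87, 9.69 and 10.4. Maf and its small relative Maff, both basic leucine zipper proteins, were at 2.55, 9.98 and 6.99 and at 4.10, 18 and 9.61 FPKM. Zbtb46 was at 1.49, 6.12 and 4.38 FPKM. Npas4, an activity-dependent factor of neurons, reached 1.57 FPKM from 0.05 at 0 h. Of 95 listed transcription factors 90 had at least 1 FPKM in 1 library. Among the 90, 3 were members, 35 were higher at 4 h and 10 at 12 h. The shares of coding genes with at least 1 FPKM were 1%, 9.61% and 2.75%.

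The cAMP response element was found in full upstream of Maff (chr15:79347420-79347519, plus strand, at -29) and Plekha4 (chr7:45526180-45526329, plus strand, at -57). Plekha4, a phosphoinositide-binding protein, was at 0.64, 2.34 and 2.45 FPKM and has an AP-1 match at -116 as well, also in capitals. An antioxidant element core at -73 and TATAAA on the opposite strand at -82 stay in lower case there. Sgk1 has an NR5A1 site upstream of 2 of its annotated starts, at -63 on the opposite strand (chr10:21978522-21978671) and at -104 (chr10:21985954-21986103), with the gene on the plus strand. A single coding isoform of 6 held 94.9%, 95.9% and 98.2% of the Sgk1 FPKM at 0, 4 and 12 h. Which annotated start that isoform uses was not determined, so these windows may lie at starts little used here. In lower case, the first Sgk1 window also holds a GATA match on the opposite strand at -27. The second holds a RUNX core at -81 and a CCAAT on the opposite strand at -23. These 4 windows are shown because they hold motifs of the cAMP pathway or of a nuclear receptor of granulosa cells.
Maff: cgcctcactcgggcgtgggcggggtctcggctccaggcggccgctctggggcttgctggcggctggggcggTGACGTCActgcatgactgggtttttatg
Plekha4: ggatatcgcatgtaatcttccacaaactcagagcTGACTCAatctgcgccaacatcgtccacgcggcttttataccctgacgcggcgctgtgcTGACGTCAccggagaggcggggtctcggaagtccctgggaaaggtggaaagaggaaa
Sgk1, the first window: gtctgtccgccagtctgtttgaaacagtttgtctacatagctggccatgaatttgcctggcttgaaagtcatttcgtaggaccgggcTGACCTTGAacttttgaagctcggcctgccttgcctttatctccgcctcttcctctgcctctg
Sgk1, the second window: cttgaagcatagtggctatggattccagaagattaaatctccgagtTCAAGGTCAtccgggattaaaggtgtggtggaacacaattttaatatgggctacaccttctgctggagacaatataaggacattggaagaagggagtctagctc

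Intracellular signalling was the largest role group, with 17 members, of which 16 had a 0 h interval below both later ones. Over all 127 members, chosen on these levels, 100 met that condition, and 5.59% of the 12700 coding genes did. The summed level of the 17 was 145, 564 and 407 FPKM. Sgk1, a kinase of the AKT-related family known to be induced by gonadotropins, was at 23.4 FPKM (18.3 to 28.4), 104 (95.8 to 112) and 89.1 (83.2 to 94.9). Arrdc3, an arrestin-domain adaptor for receptor trafficking, was at 57.9, 224 and 117 FPKM. Only 35.7% of its gain was left, among the lowest shares of all members. Prkar1b, a regulatory subunit of the cAMP-dependent kinase, was at 2.63, 12.6 and 8.75 FPKM. Ptk2b, the calcium-responsive relative of focal adhesion kinase, was at 2.78, 14.1 and 13.6 FPKM, although its 0 h interval reached from 0 to 6.06. Pim1, a survival kinase, was at 4.88, 24.0 and 12.7 FPKM.

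Regulators of small GTPases and of the cytoskeleton followed different courses. Rasal1, which switches off Ras, was at 0.49, 12.0 and 6.73 FPKM, with log2 folds of 3.12 and 2.37. Fgd5, an exchange factor for Cdc42, was at 3.22, 11.4 and 15.6 FPKM, and its 12 h interval was above that at 4 h. Cdc42ep3, an effector of Cdc42, was at 6.24, 19.9 and 20 FPKM, and Ahnak, a very large scaffold protein, at 8.53, 19.8 and 20.2. Ostf1, an adaptor protein, was at 12.8, 27.6 and 28.3 FPKM. Those last 3 were level between 4 h and 12 h, within 0.04 on the log2 scale. Itpk1, Mreg, Syt12, Efs, Gng13 and Stk16 made up the rest, between 6.20 and 26.0 FPKM at 12 h.

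Secreted ligands, receptors and mediator enzymes comprised 12 members, and the 0 h interval lay below both later ones in all 12. The same held for 100 of all 127 members, chosen on these levels, and for 5.59% of the 12700 coding genes. This group kept the lowest median share of the gain of any role group, 60.7%. Nrn1, neuritin, a small anchored neurotrophic protein, was at 52.2 FPKM (47.2 to 57.2), 273 (261 to 284) and 155 (146 to 163). Hdc makes histamine and was level after 4 h, at 4.71, 19.9 and 20.8 FPKM. Pdgfb, the growth factor that recruits pericytes, was at 9.22, 20.7 and 25.1 FPKM. Edn1 encodes endothelin-1, a vasoconstrictor peptide, and was at 1.79, 6.28 and 6.28 FPKM. Wnt4, a signal of ovarian somatic cells, was at 4.56, 21.4 and 10.6 FPKM, with later intervals apart.

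The cytokines were lower at 12 h than at 4 h. Il6 was listed at 0 at 0 h and was at 4.07 FPKM (2.26 to 5.88) and 1.64 (0.474 to 2.81) later. Clcf1, a cytokine of the same family, was at 1.24, 14.0 and 7.10 FPKM. Its membership rests on the sum over isoforms, since its main isoform alone gave a log2 fold of -1.15 at 12 h. Sema3e, a guidance ligand of vessels, was at 0.51, 7.11 and 3.70 FPKM, and Nrp1, a receptor shared by semaphorins and vascular growth factors, at 2.88, 9.57 and 7.20. Tdgf1, Tmeff1 and Fgf11 were at 9.26, 13.7 and 2.88 FPKM at 12 h. Of 71 listed growth factors, cytokines and receptors 59 had at least 1 FPKM in 1 library. Among the 59, 2 were members (Il6 and Pdgfb), with 23 higher at 4 h and 5 at 12 h. The shares over the 12700 coding genes were again 1%, 9.61% and 2.75%.

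**Figure D3:**
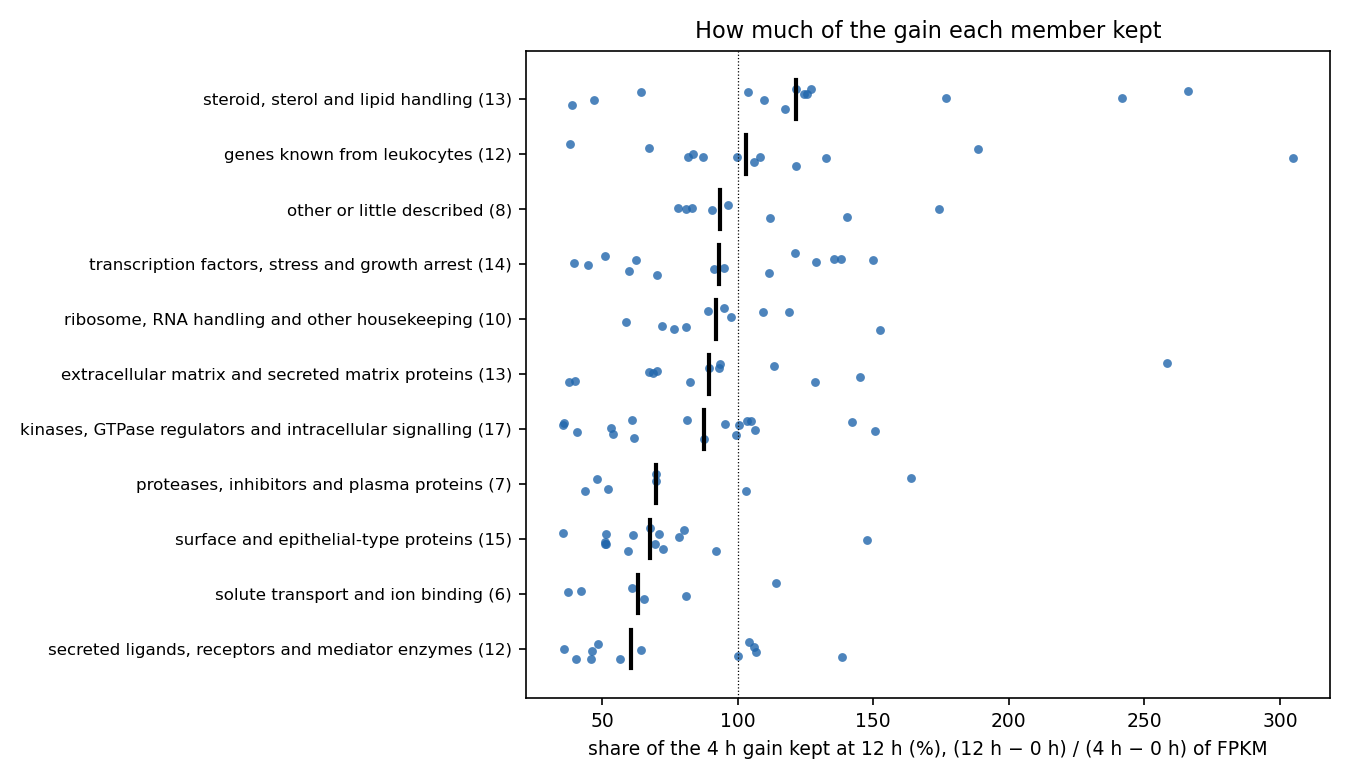
Share of each member's 4 h gain that was present at 12 h, in percent, as the FPKM above 0 h at 12 h divided by that at 4 h. Each point is 1 of 127 members, rows are role groups with their number of members, black bars are medians and the dotted line marks 100%. Medians run from 60.7% for secreted ligands, receptors and mediator enzymes to 121% for steroid, sterol and lipid handling, and the highest point is Srgn at 305%.

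Proteases, inhibitors and plasma proteins numbered 7. Lgmn, the lysosomal protease legumain, was at 43.1 FPKM (38.9 to 47.3), 153 (145 to 161) and 120 (113 to 127). Saa3, an acute-phase protein, was at 9.84, 30.7 and 44.1 FPKM. Ace, the angiotensin-converting enzyme, was at 5.67, 19.1 and 15.1 FPKM, and the later intervals of Ace and of Saa3 overlapped. Serpina3n, a serine protease inhibitor, was at 0.52, 6.09 and 3.20 FPKM. Pcsk7 was at 6.85 FPKM at 12 h, and Ahsg and Wfdc9, both listed at 0 before hCG, were under 2 FPKM. Plau, the plasminogen activator urokinase, lay outside the set at 78.7, 1105 and 199.9 FPKM.

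Transport genes were led by Slc6a6, the taurine transporter, at 33.0, 117 and 68.4 FPKM, and by Slc25a30, a mitochondrial carrier, at 23.4, 68.4 and 53.0. In each of these the 12 h interval was below that at 4 h and above that at 0 h. The cotransporter genes Slc12a4 and Slc12a8 were at 12.7, 37.2 and 27.7 and at 0.68, 5.97 and 6.71 FPKM. In Slc12a4 the 4 h interval (3.30 to 71.2) overlapped that at 0 h (7.91 to 17.5). Cnga1 and S100g were at 3.45 and 1.25 FPKM at 12 h.

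The set holds 12 genes best known from leukocytes. Srgn, the core protein of secretory granules, was at 2.55 FPKM (1.0 to 4.09), 8.67 (5.69 to 11.6) and 21.2 (16 to 26.4). It is 1 of 3 members at least 2-fold higher at 12 h than at 4 h in FPKM + 1, with Akr1b7 and Spp1, where 4.43% of the 12700 coding genes were. The complement chains C1qa and C1qc were at 8.02, 21.4 and 17.0 and at 6.71, 16.6 and 17.4 FPKM. C1qb, which lies in the same cluster and completes the complex, was at 9.25, 17.5 and 16.5 FPKM, under the threshold with log2 folds of 0.85 and 0.77. Cd52 was at 4.01, 11.2 and 17.5 FPKM, the protease Ctss at 5.07, 12.5 and 12.4, and the chemokine Ccl6 at 1.21, 9.91 and 8.49. Icam1, an adhesion molecule that many cell types make, was at 0.48, 5.84 and 2.54 FPKM. Camp, Cd37, Lst1 and Pdcd1 were under 3 FPKM at each time.

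The summed level of these 12 was 30.6, 103 and 113 FPKM. General leukocyte markers did not all follow. Of 8, Cd68 was a member at 2.09, 7.57 and 6.57 FPKM. Among the 7 with at least 1 FPKM in 1 library, 2 were higher at 4 h and 1 at 12 h. The shares over the 12700 coding genes were 9.61% and 2.75%. Median log2 folds of the 7 markers were 0.72 and 0.41. Ptprc, carried by nearly all leukocytes, was at 0.489, 0.489 and 0.521 FPKM, and the macrophage receptor Csf1r at 2.67, 2.46 and 2.62. Lyz2 was at 45.2, 56.5 and 73.0 FPKM and Tyrobp at 9.94, 19.4 and 13.6. None of the 8 was listed at 0 in a library. The neutrophil markers S100a9 and S100a8 were at 0, 10.8 and 0.266 and at 1.59, 10.2 and 0.463 FPKM, and Ngp was listed at 0 throughout. The part of such cells in the 12 genes' levels was not tested.

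**Figure D4:**
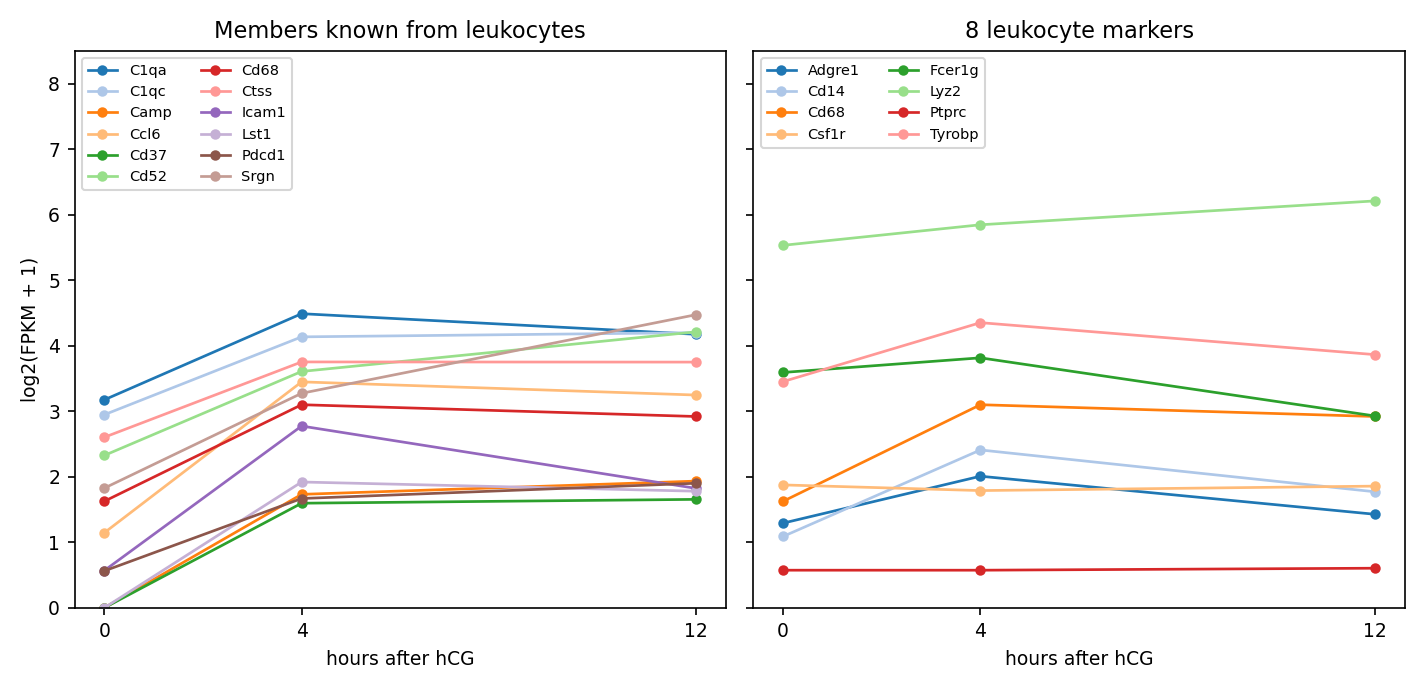
Levels, as log2 of FPKM + 1, of the 12 members known from leukocytes (left) and of 8 leukocyte markers (right) against hours after hCG, with 1 library per time. All members are higher at both later times by the rule that chose them. Among the markers Ptprc and Csf1r stay near 0.5 and 2.6 FPKM. The 7 markers with at least 1 FPKM in 1 library have median log2 folds of 0.72 at 4 h and 0.41 at 12 h.

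For 10 genes of the ribosome, RNA handling and general metabolism, isoforms and copies limit the values. Exosc10, a nuclease of the RNA exosome, was at 0.27 FPKM (0 to 0.724), 23.2 (14.2 to 32.3) and 22.7 (19.3 to 26.1) over its coding isoforms, the largest log2 fold at 12 h after that of Akr1b7. With its noncoding isoform added the same gene was at 22.1, 29.5 and 26.0 FPKM, and no longer a member. Adding noncoding isoforms removed 12 members in all: Ahsg, Exosc10, Lrp8, Minar2, Pcsk7, Pitpnm1, Slc12a4, Smim22, Stk16, Szrd1, Tor2a and 4930523C07Rik. In these, apart from Lrp8 and 4930523C07Rik, the log2 fold with all isoforms was under 0.5 at 12 h. Rpl30, Rps12 and Rps29 belong to families with many near-identical copies, so their levels of 28.3, 3.55 and 1.37 FPKM at 12 h are uncertain. Rpp25, a subunit of the RNase P and MRP enzymes, was at 1.38, 9.02 and 13.0 FPKM over 1 coding isoform. Sco2, Galnt15 and Gnmt were at 9.49, 7.92 and 2.07 FPKM at 12 h.

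The last 8 members have little described function. Of these Gm20594 was the highest at 12 h, at 0.58, 7.71 and 6.51 FPKM, and Pdzrn3 was at 0.50, 4.20 and 3.39. The others, Gm44504, Minar2, Gm27021, Hrct1, C87414 and 4930523C07Rik, were between 1.23 and 4.37 FPKM at 12 h. Across the whole set 24 members had under 10 estimated fragments at 0 h, and 93 had at least 100 at both later times.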

How the data were processed

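The values are the authors' deposited FPKM of RefSeq isoforms with lower and upper bounds, 1 library per time. The submitters' processing notes list CASAVA 1.8, TopHat2 2.1.1, Cufflinks 2.2.1 and mm10 and give no role or order. Pooling of the 3 mice, strandedness and the level of the bounds are not given in the sources used here, so genes that overlap on opposite strands are uncertain. Of 29596 coding isoforms, 29331 were matched to symbols through RefSeq (GRCm38.p6) and 122 through GENCODE, 143 had no match, and the rest were summed per gene. Intervals used the upper bounds only. The isoforms' upper half-widths were combined as the root of their summed squares and applied on both sides, with lower limits cut at 0. Log2 folds used a pseudocount of 1 FPKM, which understates low genes. Depth came from the steps of low values, of which 70.0% to 71.8% were within 0.1 of whole fragments where chance gives 20%. The rule of size replaces a test, and scripts (Python 3.11.15, pandas 2.3.3) were tested on simulated data. The simulation had counting noise only and raised no gene of low 0 h level, so it does not cover such members. Sample columns left unused numbered 0.

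Members, role groups and the 27 gene lists were chosen with earlier results of these data known. The genes named by rule, 63 in number, were Akr1b7, Ly6d and Spp1, the most abundant members and those with the largest folds or changes between 4 h and 12 h, the top members of each list, those at thresholds, neighbours, those with isoform changes of 20 points, and steroid and aldo-keto reductase genes. All others were named after their values were seen. Alternatives covered the pseudocount, scaling, isoform choice, filters and thresholds.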

Additional observations from a re-analysis of the deposited data

How the results depend on the processing

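The count of 127 coding genes raised at 4 h and kept depended on the pseudocount, the isoforms and the threshold. It was 482 with a pseudocount of 0.1 FPKM and 41 with 5 FPKM, of which 120 and 40 were among the 127. It was 227 when each gene was read from its main isoform, 489 with 1.5-fold thresholds and 16 with 4-fold ones. With the other scalings, filters, intervals and fall limits tried the count lay between 98 and 136, and 106 members were shared when libraries were brought to equal sums. Equal sums over coding isoforms, chosen after seeing the data, gave 126 genes, 106 of them shared. Clcf1 reversed, at a log2 fold of -1.15 at 12 h with its main isoform alone. Among 1323 alternative values of the named genes' folds 124 moved beyond their interval, and 34 of 243 list counts moved; the cause was not tested. The members' median 12 h over 4 h went from -0.17 to 0.17 with equal library sums, 0.07 with equal coding sums and -0.14 with median-of-ratios scaling, which put all coding genes at 0.35, 0.26 and 0.04. No paired analysis was possible because each time had 1 library, and for the same reason no library could be left out. The motif share comparison and its alternatives were not run, since 77.2% of members had a promoter window.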

Other observations

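Of the 127 members, the pseudocount of 5 FPKM alone removed 87, and no other of 7 alternatives removed more than 21. In all, 37 stayed in the set under each of the 7 (both other pseudocounts, all 3 other scalings, the main isoform and the sum with noncoding isoforms). By role, 6 of 13 steroid and lipid genes did so (Abca1, Abcb1b, Akr1b7, Akr1c18, Alas1 and Cyp11b1), 6 of 13 matrix genes (Cemip, Col4a1, Col4a2, Mgp, Spp1 and Tinagl1), 6 of 15 surface genes (Asgr1, Bves, Heg1, Ly6d, Sbsn and Shroom3) and 6 of 14 stress and transcription genes (Bhlhe40, Gadd45a, Gadd45b, Hspb1, Nupr1 and Rgcc). Of the 12 genes known from leukocytes 1 did, the chemokine Ccl6, and all the others were lost with 5 FPKM added. In the signalling group 4 of 17 stayed, and among secreted ligands, receptors and mediator enzymes 2 of 12. The counts were 2 of 7 for proteases, inhibitors and plasma proteins and 2 of 10 for ribosome, RNA handling and housekeeping genes. They were 1 of 6 for transport genes and 1 of 8 for genes of little described function.

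Several members changed in which coding isoform held their FPKM. Of 18 members with several coding isoforms and at least 10 FPKM at 4 h and 12 h, 6 had an isoform whose share moved by 20 percentage points or more. In Stk16, a membrane-bound kinase, an isoform with 10.5% of the gene's FPKM at 0 h and 14.8% at 4 h held 73.3% at 12 h, while the gene's total was level at 26.1 and 26.0 FPKM. In Shroom3 an isoform with 34.8% at 0 h held 0.0119% at 4 h and 0.00702% at 12 h. In Ptk2b the main isoform went from 48.0% at 0 h to 99.999% at 4 h and 96.0% at 12 h. In Slc12a4 and Asgr1 a minor isoform was estimated at 33.2% and 28.5% of the FPKM at 4 h, against 0.101% and 0.0145% at 12 h. The gene's own interval was wide in Slc12a4 at 4 h (3.30 to 71.2 FPKM). At 0 h, where the 10 FPKM floor did not apply, it was 0 to 17.5 in Shroom3, 0 to 12.3 in Stk16 and 0 to 6.06 in Ptk2b. In Stk16 it was also broad later, at 17.4 to 34.9 FPKM at 4 h and 14.7 to 37.3 at 12 h. Their shares at these times are therefore loose estimates. In Ace an isoform near 0 at 0 h held 22.8% at 4 h and 25.3% at 12 h. The intervals of single isoforms were not compared, and these shares come from 1 estimate per library.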
